A study of Mus musculus with 12 samples.

Results

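The TRIM (tripartite motif) family was taken as every gene of the deposited table whose symbol is Trim followed by a digit, without symbols containing -ps, which left out 1 gene, Trim30e-ps1. The rule found 67 of the 43280 genes in the table, and no measured value entered it. Of the 67 genes, 39 passed the filter on low values and could be tested, and 28 did not. The 67 members were described over genotype and over hours of lipopolysaccharide (LPS).

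Bone marrow-derived macrophages (BMDM) were grown from the marrow of C57BL6 mice in medium with M-CSF, the growth factor that drives macrophage differentiation. The mice were wild type (wt) or lacked the receptor gene Treml4 (Treml4-/-). Cells were unstimulated, with PBS as the vehicle (M0), or had received LPS at 100 ng/ml for 8 h (M1-8h) or 12 h (M1-12h), and each of the 6 conditions had 2 biological replicates, 12 libraries in all. The labels do not say whether replicates came from separate mice, so p-values measure the spread between these samples, which may be partly technical. LPS is a bacterial cell wall component that signals through Toll-like receptor 4 and, within hours, induces interferon beta in macrophages.

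TRIM proteins share an N-terminal RING finger, B-box zinc fingers and a coiled coil, and most attach ubiquitin to other proteins through the RING finger, which makes them E3 ubiquitin ligases. The C-terminal domain sets them apart from each other. Many members with a PRY-SPRY domain act in antiviral defence and are known as interferon-stimulated genes, whereas members with a PHD finger and bromodomain work on chromatin and those with NHL repeats bind RNA or other proteins. In macrophages, TRIM proteins are known both as positive regulators of nucleic acid sensing and as brakes on Toll-like receptor signalling.

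Each library had 48008751 to 58500792 reads counted on genes, and 3 reads, the lowest count read as signal here, corresponded to 0.0513 to 0.0625 CPM, the read count scaled to library size. Treml4 had 3.95 to 13.2 CPM in the 6 wt libraries and 0 reads in the 6 Treml4-/- libraries. The 8 macrophage markers summed to 20712 to 27907 CPM at M0, 10295 to 13416 CPM at M1-8h and 9996 to 11185 CPM at M1-12h, and all 8 were detected in every library. The 3 B cell, 3 T or NK cell and 2 mast cell or basophil markers summed to at most 0.309 CPM in any library. The 6 neutrophil markers summed to 32.5 to 103 CPM, with Ly6g at 0 in 6 libraries, the 4 stromal markers to 0.355 to 2.51 CPM and the 4 dendritic cell markers to 0.610 to 0.998 CPM at M0 and 4.35 to 9.13 CPM after LPS. The macrophage and dendritic cell sums thus moved with LPS. The macrophage sum also differed by genotype, at 23247 to 27907 CPM (wt) against 20712 to 20948 CPM (Treml4-/-) at M0. At M1-8h it was 12017 to 13416 against 10295 to 11030 CPM. The neutrophil sum was lower in wt, at 32.5 to 85.0 against 87.6 to 103 CPM at M0 and 55.3 to 59.7 against 69.2 to 89.7 CPM at M1-8h. At M1-12h the genotypes overlapped in both sums. The part of these sums in the results below was not tested. The markers within each list did not move together. Of the 8 macrophage markers 3 were called higher and 3 lower at 8 h, as defined below, beside 17.1% and 59.8% of all genes. Lyz2, the highest, was at 10416 to 15208 CPM at M0 and 4019 to 6514 CPM at M1-8h. The dendritic cell rise lay in Xcr1 and Clec9a. Flt3 was at 0.393 to 0.713 CPM at M0 and 0.0404 to 0.223 CPM at M1-8h, and Zbtb46 at most at 0.337 CPM. In bulk RNA, fewer cells of a type and less RNA per cell cannot be told apart.

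The family's summed level was 1307 to 1410 CPM over the 4 libraries at M0, 3195 to 3815 CPM at M1-8h and 3081 to 3251 CPM at M1-12h, so the time points with LPS did not overlap M0. Trim25 and the 4 Trim30 genes made up 20.1% to 22.9% of that sum at M0, 62.3% to 66.2% at M1-8h and 66.8% to 67.9% at M1-12h. Without these 5 genes the sum was 1044 to 1087 CPM at M0, 1194 to 1289 CPM at M1-8h and 990.3 to 1055 CPM at M1-12h, so the rise of the sum lay mostly in them. Levels of different genes were compared per kilobase of exon, as CPM per kb. At M0 the highest members were Trim28, the KAP1 corepressor of zinc finger repressors, with 41.2 ± 2.60 CPM per kb (SD, n = 4) and Trim25, a ligase that acts on the RNA sensor RIG-I, with 40.6 ± 3.65 CPM per kb, and the libraries of this pair overlapped. Trim35 with 26.4 ± 0.469 and Trim8 with 24.3 ± 1.90 CPM per kb came next and overlapped each other. At M1-8h the order was led by Trim30a with 184 ± 27.4 and Trim25 with 172 ± 17.1 CPM per kb, which overlapped, followed by Trim30c with 94.0 ± 10.7 CPM per kb. At M1-12h Trim25 with 161 ± 3.52 CPM per kb lay above Trim30a with 150.0 ± 5.13 CPM per kb in every library, while Trim30c, at 143 ± 18.8 CPM per kb, spanned both.

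LPS for 8 h changed most of the family in both directions. The test was limma on log2(CPM + 1) over the 12 libraries, a scale on which changes of weakly expressed genes come out smaller than they are. A gene was called where it changed at least 1.4-fold with an adjusted p under 0.05 (Benjamini-Hochberg). At 8 h against M0, 37 of the 39 tested members were called (94.9%), beside 76.9% of all 12086 genes tested. Of these members 16 rose (41%, beside 17.1% of all genes) and 21 fell (53.8%, beside 59.8% of all genes). Trim6, Trim30b and Trim30c passed the filter of 1 CPM in 2 libraries only through LPS libraries, and Trim2 only through M0 libraries. Their calls are thus no independent evidence of direction. At 12 h against M0, 34 members were called, beside 76.5% of all genes, with 14 higher (35.9%, beside 16.3%) and 20 lower (51.3%, beside 60.3%). The median log2 fold change of the members was -0.54 at 8 h and -0.51 at 12 h, and that of all genes was -0.72 and -0.76. At 8 h 36 of the 39 members had no overlap between the 4 M0 and the 4 LPS libraries, beside 83.3% of all genes.

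Scaling to library size placed the median gene below 0 after LPS, and other scalings moved it. Median of ratios scaling shifted the median log2 fold change of all genes up by 0.749 at 8 h and 0.795 at 12 h, and quantile normalization by 0.5995 and 0.657. With median of ratios the members then split into 17 higher (beside 31.1% of all genes) and 14 lower (beside 31.3%) at 8 h, and into 17 (beside 32.6%) and 13 (beside 32.5%) at 12 h. With quantile normalization they split into 18 higher (beside 27.8%) and 12 lower (beside 35.9%) at 8 h, and into 18 (beside 29.7%) and 13 (beside 35.9%) at 12 h. Moderate falls therefore depended on the scaling. Trim3, Trim11, Trim32, Trim33, Trim39, Trim41, Trim46, Trim62 and Trim68 lost their call at 8 h under at least 1 of these scalings. At 12 h Trim3, Trim8, Trim11, Trim32, Trim33, Trim36, Trim46, Trim62 and Trim68 did so. The 10 members with the largest falls, described further on, were called lower under all 3 scalings.

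The Trim30 genes had the largest rises. The 4 are neighbouring paralogs with PRY-SPRY domains, and Trim30a is known as a brake on NF-kappaB signalling through the TAB2 and TAB3 adaptors. Trim30c was at 0.347 and 0.295 CPM (wt) and 0.367 and 0.412 CPM (Treml4-/-) at M0, at 140.4 and 178 CPM (wt) and 151 and 175 CPM (Treml4-/-) at M1-8h, and at 251 and 288 CPM (wt) and 219.6 and 221 CPM (Treml4-/-) at M1-12h. Its mean was 454 times the M0 mean at 8 h and 689.5 times at 12 h, the largest change in the family, with no overlap between time points. Trim30b was at 0.714 and 0.315 CPM (wt) and 0.611 and 0.617 CPM (Treml4-/-) at M0, at 64.3 and 56.9 CPM (wt) and 70.8 and 99.6 CPM (Treml4-/-) at M1-8h and at 124 and 147 CPM (wt) and 125 and 126 CPM (Treml4-/-) at M1-12h. The rise went on after 8 h for both of these genes, which were called higher at 12 h than at 8 h.

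Trim30d was at 6.67 and 5.72 CPM (wt) and 6.70 and 8.04 CPM (Treml4-/-) at M0, at 148 and 210.4 CPM (wt) and 183 and 286 CPM (Treml4-/-) at M1-8h and at 202 and 216 CPM (wt) and 202 and 186 CPM (Treml4-/-) at M1-12h. Trim30a, the highest of the 4 at M0 per kb, was at 52.3 and 40.2 CPM (wt) and 44.7 and 51.5 CPM (Treml4-/-) at M0, at 639 and 724 CPM (wt) and 752 and 909 CPM (Treml4-/-) at M1-8h and at 597 and 628 CPM (wt) and 641 and 602 CPM (Treml4-/-) at M1-12h. For Trim30d and Trim30a the 8 h and 12 h libraries overlapped, and replicate 2 of Treml4-/- M1-8h held the highest value of both genes. The log2 fold changes at 8 h were 6.90 ± 0.09 for Trim30c, 5.54 ± 0.12 for Trim30b, 4.71 ± 0.14 for Trim30d and 3.97 ± 0.10 for Trim30a (SE), with a Benjamini-Hochberg adjusted p of 5.42e-11 or less by limma. At 12 h they were 7.49 ± 0.09, 6.40 ± 0.12, 4.71 ± 0.14 and 3.69 ± 0.10. Trim30c and Trim30b passed the filter only through their LPS libraries, so their p-values are no separate support for a rise. Trim30a and Trim30d shared 3.81% and 3.86% of their 126-base words, the length of 1 read, so a small part of their reads could not be told apart, while Trim30b and Trim30c shared none with another gene.

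**Figure D1:**
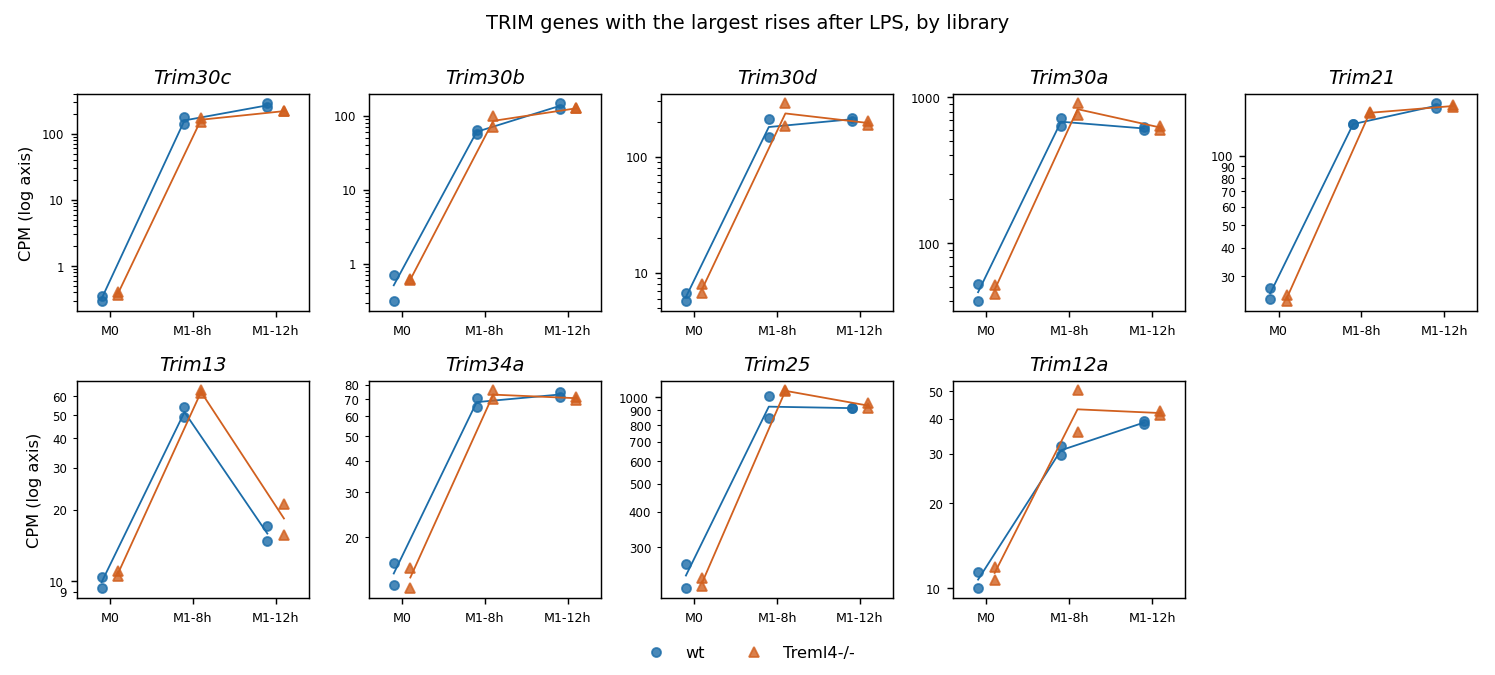
CPM per library (log axis, its range differs by panel) of the 9 TRIM genes with the largest rises at 8 h or 12 h of LPS, with circles for wt, triangles for Treml4-/- and lines through the means of the 2 replicates. In each panel the 4 M0 libraries lie below all 8 LPS libraries, and Trim13 alone of the 9 returns most of the way to its M0 level at M1-12h.

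The other members listed as interferon-linked PRY-SPRY genes rose less. Protein sequences were not at hand, so the domain of each member was not checked on its sequence. Trim21, a cytosolic antibody receptor and ligase, was at 26.7 and 24.0 CPM (wt) and 23.5 and 24.9 CPM (Treml4-/-) at M0, at 137 and 137 CPM (wt) and 152 and 154 CPM (Treml4-/-) at M1-8h and at 160.4 and 168 CPM (wt) and 165 and 163 CPM (Treml4-/-) at M1-12h. Its log2 fold change was 2.50 ± 0.06 at 8 h and 2.68 ± 0.06 at 12 h (limma, Benjamini-Hochberg adjusted p = 5.39e-12 and 3.39e-12), the smallest SE among the 9 members with the largest rises. Trim25 was at 263 and 217 CPM (wt) and 220.0 and 236 CPM (Treml4-/-) at M0, at 1009 and 846 CPM (wt) and 1050.2 and 1056 CPM (Treml4-/-) at M1-8h and at 916 and 917 CPM (wt) and 914 and 956 CPM (Treml4-/-) at M1-12h. These values gave 2.08 ± 0.08 and 1.98 ± 0.08 on the log2 scale, a rise to 4.24 times the M0 mean at 8 h.

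Trim34a was at 15.8 and 12.9 CPM (wt) and 12.6 and 15.1 CPM (Treml4-/-) at M0, at 65.5 and 71.0 CPM (wt) and 70.3 and 75.9 CPM (Treml4-/-) at M1-8h and at 71.4 and 74.9 CPM (wt) and 71.8 and 69.7 CPM (Treml4-/-) at M1-12h. Its log2 fold changes were 2.25 ± 0.08 and 2.28 ± 0.08, and 13.2% of its 126-base words were shared with Trim34b, a paralog with at most 0.421 CPM. Trim12a was at 11.5 and 10.0 CPM (wt) and 10.7 and 11.9 CPM (Treml4-/-) at M0, at 29.8 and 32.0 CPM (wt) and 36.0 and 50.4 CPM (Treml4-/-) at M1-8h and at 38.2 and 39.3 CPM (wt) and 42.5 and 41.3 CPM (Treml4-/-) at M1-12h, with 1.63 ± 0.10 and 1.78 ± 0.10 on the log2 scale. Its paralog Trim12c rose by 1.77 ± 0.13 and 1.505 ± 0.13, Trim6, a ligase that makes free ubiquitin chains for the kinase IKKepsilon, by 1.48 ± 0.12 and 1.32 ± 0.12, Trim14, a mitochondrial adaptor, by 1.19 ± 0.06 and 1.21 ± 0.06, and Trim26, a nuclear and cytosolic ligase, by 1.03 ± 0.07 and 0.72 ± 0.07. In all, 12 of the 14 tested members of this group rose at 8 h (beside 17.1% of all genes) and the same number at 12 h (beside 16.3%), and the group's median was 1.92 at 8 h and 1.88 at 12 h on the log2 scale. The group was drawn up with earlier results of these data known, so its count is no independent evidence of its direction.

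The 2 tested members of the group that did not rise were Trim65 and Trim5. Trim65, a ligase for the RNA sensor MDA5, was at 22.0 and 21.05 CPM (wt) and 20.1 and 20.8 CPM (Treml4-/-) at M0, at 2.34 and 2.58 CPM (wt) and 2.50 and 2.32 CPM (Treml4-/-) at M1-8h and at 5.04 and 5.99 CPM (wt) and 6.48 and 6.96 CPM (Treml4-/-) at M1-12h. It fell at both times, by 2.68 and 1.63 on the log2 scale, and was higher at 12 h than at 8 h by 1.04 ± 0.08 (limma, Benjamini-Hochberg adjusted p = 1.17e-06). Trim65 overlaps its neighbour Trim47 on the same strand of chromosome 11, and 1.75% of its 126-base words were shared. Trim5, a paralog of Trim12a and Trim12c, was at 3.26 and 2.68 CPM (wt) and 3.71 and 4.23 CPM (Treml4-/-) at M0, at 3.05 and 3.53 CPM (wt) and 4.51 and 6.29 CPM (Treml4-/-) at M1-8h and at 3.40 and 4.33 CPM (wt) and 4.60 and 4.63 CPM (Treml4-/-) at M1-12h, and the time points overlapped. Its log2 fold change of 0.23 ± 0.11 at 8 h did not pass (limma, Benjamini-Hochberg adjusted p = 0.0677), with a 95% interval of -0.01 to 0.48. Under median of ratios scaling Trim5 was called higher, at 0.84, and under quantile normalization too, at 1.06. In Trim5, 6.30% of the 126-base words were shared with Trim12c or Trim12a.

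Of the 16 members that rose at 8 h, 8 lie in 1 stretch of chromosome 7. On GRCm38, 10 members, 9 of them tested, occupy 289 kb from the start of Trim6 to the end of Trim30d (chr7:104218793-104507849). At 8 h and at 12 h 8 of the 9 tested members there were called higher, all but Trim5, beside 17.1% of all genes at 8 h and 16.3% at 12 h. Of these, Trim6, Trim30b and Trim30c passed the filter only through LPS libraries, so their calls are no independent evidence of direction. The untested member, Trim34b, did not pass the filter. Of the 30 tested members elsewhere, 8 were higher and 21 lower at 8 h, beside 17.1% and 59.8% of all genes, and 6 were higher and 20 lower at 12 h, beside 16.3% and 60.3%. Among them, Trim2 passed only through M0 libraries. The rise on chromosome 7 was not limited to the stretch, since Trim21, outside it, rose as well (2.50 at 8 h and 2.68 at 12 h). Trim28, Trim68 and Trim3 also lie outside it and were called lower at both times. Trim68 and Trim3 fell by 1.20 and 0.81 on the log2 scale at 8 h, and at 8 h the fall of Trim3 was not called under either other scaling, nor that of Trim68 under quantile normalization.

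**Figure D2:**
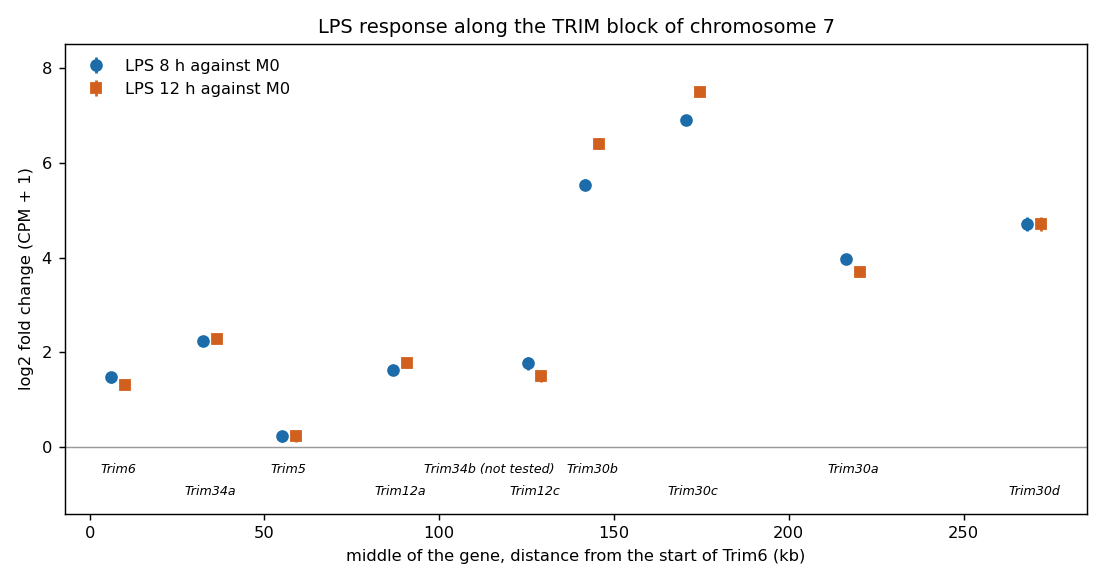
Log2 fold change of CPM + 1 after 8 h (circles) and 12 h (squares) of LPS against M0, with SE bars mostly smaller than the points, for the TRIM genes of the chromosome 7 stretch, placed by the distance of the gene's middle from the start of Trim6 in kb. The 4 Trim30 genes at the right lie between 3.69 and 7.49, the genes to their left between 1.32 and 2.28, and Trim5 at 0.23 and 0.24.

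The promoters of these genes were read from RefSeq (GRCm38.p6) as windows of 250 bases before to 50 bases after each start, which were at hand for 52 of the 67 members and 30 of the 39 tested. The core of the interferon-stimulated response element, GAAANNGAAA, bound by interferon regulatory and STAT factors, was searched on both strands, and overlapping matches were allowed. A window with a match was found for 7 of the 13 members with a window that rose at 8 h (Trim12a, Trim12c, Trim21, Trim26, Trim30a, Trim30d and Trim34a), for 1 of 15 that fell (Trim2), for 1 of 2 not called (Trim5) and for 0 of 22 not tested. Among all 27025 genes in the table of promoters, 3.99% had one. The 7 rising members were not all separate cases. The windows of Trim30a and Trim30d shared an identical stretch of 118 bases, and those of Trim12a and Trim12c 1 of 71 bases. A looser NF-kappaB core, GGGNNNNNCC, was found for 9 of the 13 that rose and 12 of the 15 that fell, beside 53.5% of all genes. These counts are descriptions of the windows, and a match is not a shown binding site.

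The Trim30 windows are given because these genes rose most and the windows of Trim30a, Trim30d and Trim30c are related. Each stretch has 60 bases read 5′ to 3′ in the direction of transcription, on GRCm38.p6, and capitals mark the 10 bases at the place of the element core in Trim30a, which reads on the opposite strand. For Trim30a the upstream one of its annotated starts was used.
Trim30a (chr7:104465195-104465254, minus strand): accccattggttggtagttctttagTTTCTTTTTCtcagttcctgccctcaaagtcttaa
Trim30d (chr7:104507856-104507915, minus strand): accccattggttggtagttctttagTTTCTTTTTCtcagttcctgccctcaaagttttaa
Trim30c (chr7:104400881-104400940, minus strand): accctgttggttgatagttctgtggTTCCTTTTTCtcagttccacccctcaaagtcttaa
Trim30d was identical to Trim30a at 59 of 60 bases, and the capital stretch was the same. Trim30c was identical at 52 of 60 bases and carried T3C in the core, counted from 1 at the first capital with the base of Trim30a first, so that its window held no exact match. Between the end of the aligned stretch and the RefSeq start lay 1 base for Trim30a, 6 for Trim30d and 102 for Trim30c. The window of Trim30b had no stretch identical at more than 23 of 60 bases, the closest being chr7:104358782-104358841. That window, placed by the RefSeq start, lay inside the gene as GENCODE M21 annotates it (chr7:104355382-104369884, minus strand). Bases upstream of the GENCODE start of Trim30b were not searched, so the comparison does not cover them. Trim30c and Trim30b, the 2 genes with the largest rises, were thus among the 6 rising members whose windows held no match.

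The windows around the core in Trim5, Trim12a and Trim12c are shown because these paralogs differed in their response.
Trim5 (chr7:104288136-104288165, minus strand): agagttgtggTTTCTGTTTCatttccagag
Trim12a (chr7:104315466-104315495, minus strand): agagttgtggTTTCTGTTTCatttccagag
Trim12c (chr7:104353359-104353388, minus strand): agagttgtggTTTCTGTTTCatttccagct
The 30 bases of Trim5 and Trim12a were the same, and their promoter windows shared an identical stretch of 241 bases, while that of Trim12c with either was 71 bases long. The core began 49 bases before the RefSeq start of Trim5, 29 before that of Trim12c and 11 bases after that of Trim12a. GENCODE M21 places the start of Trim12a at chr7:104315466 on the minus strand, so by that annotation the core lay before the start. Its side of the Trim12a start thus depended on the annotation. Trim12a rose by 1.63 on the log2 scale at 8 h, against 0.23 for Trim5.

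The matches in the promoters of Trim21, Trim34a and Trim26 are given as examples from genes that rose without being close paralogs.
Trim21 (chr7:102565450-102565479, minus strand): cctctgagagGAAACTGAAAgtgaaatttg
Trim34a (chr7:104244457-104244486, plus strand): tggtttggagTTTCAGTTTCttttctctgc
Trim26 (chr17:36836976-36837005, plus strand): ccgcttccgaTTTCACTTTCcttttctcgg
Trim21 held a further match that overlapped the one shown, starting 6 bases on, and so did Trim26. In Trim21 and Trim34a the match lay within the first 50 bases of the transcript.

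Outside that group, 3 members rose and then fell back. Trim13, a ligase anchored in the endoplasmic reticulum membrane, was at 10.5 and 9.34 CPM (wt) and 11.1 and 10.6 CPM (Treml4-/-) at M0, at 49.0 and 53.8 CPM (wt) and 63.4 and 61.6 CPM (Treml4-/-) at M1-8h and at 14.7 and 16.99 CPM (wt) and 21.04 and 15.7 CPM (Treml4-/-) at M1-12h. It rose by 2.35 ± 0.10 on the log2 scale at 8 h and was lower at 12 h than at 8 h by 1.68 (limma, Benjamini-Hochberg adjusted p = 1.41e-07), while staying above M0. Trim35, a PRY-SPRY ligase known from blood cells, ranged over 119 to 125 CPM at M0, 309 to 348 CPM at M1-8h and 157 to 182 CPM at M1-12h. Its rise of 1.403 ± 0.05 was called at 8 h, and the difference of 0.46 ± 0.05 at 12 h was not, though it was under median of ratios scaling (1.31) and quantile normalization (0.66).

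Trim36, a microtubule-associated ligase with a COS box, ranged over 7.56 to 9.20 CPM at M0, 22.7 to 34.2 CPM at M1-8h and 2.78 to 6.07 CPM at M1-12h. It was the only tested member called higher at 8 h (1.51 ± 0.18) and lower at 12 h (-0.95 ± 0.18), and the second call was lost with median of ratios scaling (-0.22) and turned to 0.09 with quantile normalization. Trim56, a ligase that acts on DNA sensing, rose by 1.07 ± 0.09 at 8 h and 1.16 ± 0.09 at 12 h, and differed by 0.09 ± 0.09 between 12 h and 8 h.

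**Figure D3:**
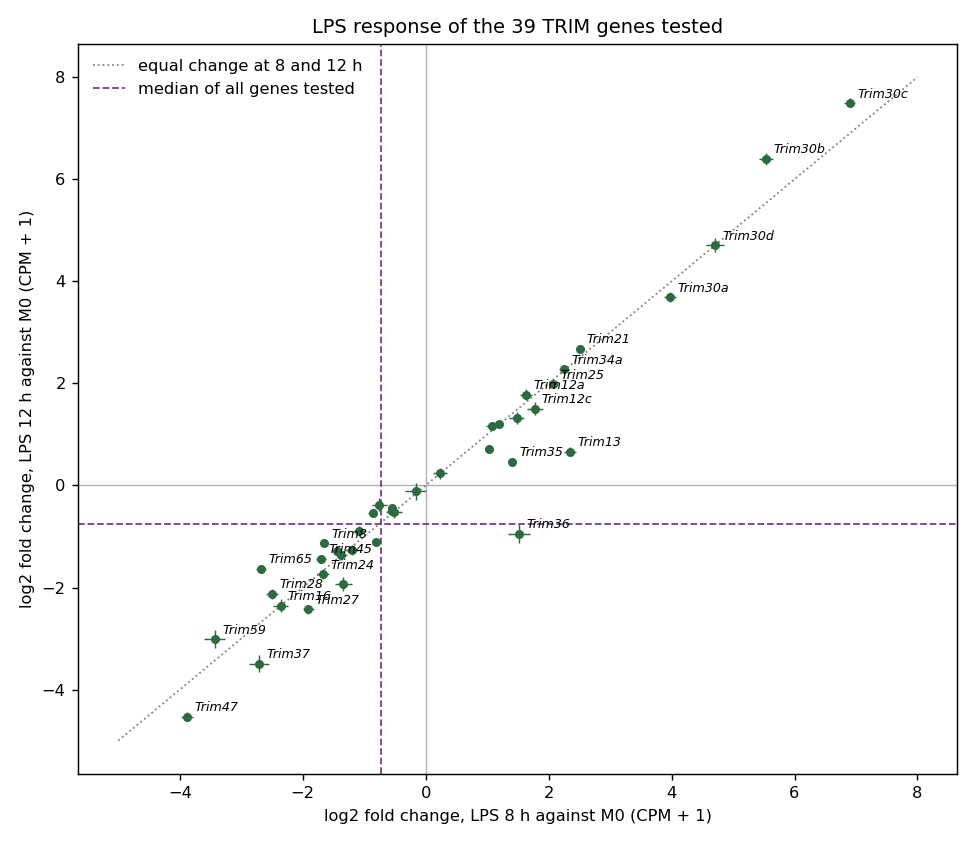
Log2 fold change of CPM + 1 at 8 h (x axis) against that at 12 h (y axis), each relative to M0, for the 39 tested TRIM genes with SE bars; the dotted line marks equal change and the dashed lines the median of all genes tested, -0.72 and -0.76. Most genes lie near the line of equal change, with Trim13, Trim35 and Trim36 below it and Trim65 above it on the side of the falls.

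On the log2(CPM + 1) scale the largest falls at 8 h were in Trim47 and Trim59, and at 12 h in Trim47 and Trim37. Trim47, a PRY-SPRY ligase, was at 43.4 and 42.8 CPM (wt) and 44.5 and 42.6 CPM (Treml4-/-) at M0, at 2.26 and 1.60 CPM (wt) and 2.22 and 1.98 CPM (Treml4-/-) at M1-8h and at 0.863 and 0.615 CPM (wt) and 1.02 and 1.23 CPM (Treml4-/-) at M1-12h. The M0 mean was 21.5 times that at 8 h and 46.4 times that at 12 h, and the 3 time points did not overlap. Of the 126-base words of Trim47, 3.78% were shared with another gene. Trim59, a membrane-anchored ligase, was at 17.5 and 10.6 CPM (wt) and 16.97 and 18.9 CPM (Treml4-/-) at M0, at 0.242 and 0.538 CPM (wt) and 0.479 and 1.02 CPM (Treml4-/-) at M1-8h and at 0.633 and 1.35 CPM (wt) and 1.19 and 1.18 CPM (Treml4-/-) at M1-12h. Its log2 fold changes were -3.43 ± 0.17 and -3.01 ± 0.17, beside -3.88 ± 0.10 and -4.53 ± 0.10 for Trim47 (limma, Benjamini-Hochberg adjusted p of 8.60e-09 or less for all 4).

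Trim37, a ligase with a MATH domain that acts on histone H2A and in peroxisome and centriole biology, was at 33.7 and 19.9 CPM (wt) and 26.6 and 30.7 CPM (Treml4-/-) at M0, at 3.35 and 2.12 CPM (wt) and 4.67 and 3.46 CPM (Treml4-/-) at M1-8h and at 1.42 and 1.548 CPM (wt) and 1.71 and 1.35 CPM (Treml4-/-) at M1-12h. It fell by 2.71 on the log2 scale at 8 h and by 3.495 at 12 h. Trim16, which lacks a RING finger and is known for its role in the response to lysosomal damage, was at 35.1 and 33.6 CPM (wt) and 35.0 and 37.1 CPM (Treml4-/-) at M0, at 6.22 and 4.14 CPM (wt) and 7.76 and 6.59 CPM (Treml4-/-) at M1-8h and at 5.72 and 4.41 CPM (wt) and 8.14 and 6.46 CPM (Treml4-/-) at M1-12h. The fall was 2.36 on the log2 scale at both times, and 2.43% of its 126-base words were shared with Fbxw10. Trim27, a PRY-SPRY ligase, was at 38.6 and 40.0 CPM (wt) and 41.8 and 41.8 CPM (Treml4-/-) at M0, at 10.4 and 11.9 CPM (wt) and 9.98 and 8.27 CPM (Treml4-/-) at M1-8h and at 6.18 and 7.84 CPM (wt) and 6.33 and 6.68 CPM (Treml4-/-) at M1-12h. Its log2 fold changes were -1.91 ± 0.09 and -2.43 ± 0.09, and it was called lower at 12 h than at 8 h (-0.52). Neither other scaling kept this call between the LPS times, at -0.48 by median of ratios and -0.44 after quantile normalization. In none of these 3 genes did an LPS library reach the lowest M0 library.

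The 3 tested PHD and bromodomain members, which regulate chromatin, all fell at both times, beside 59.8% of all genes at 8 h and 60.3% at 12 h. Trim28 was at 163 and 168 CPM (wt) and 187 and 167 CPM (Treml4-/-) at M0, at 28.8 and 38.1 CPM (wt) and 28.5 and 24.1 CPM (Treml4-/-) at M1-8h and at 36.0 and 44.1 CPM (wt) and 36.6 and 38.4 CPM (Treml4-/-) at M1-12h. Its log2 fold changes were -2.50 ± 0.10 and -2.12 ± 0.10, and the M0 mean was 5.74 times that at 8 h. Trim24, a coregulator of nuclear receptors, was at 9.70 and 8.48 CPM (wt) and 8.70 and 10.2 CPM (Treml4-/-) at M0, at 1.63 and 2.10 CPM (wt) and 2.55 and 2.74 CPM (Treml4-/-) at M1-8h and at 1.96 and 2.02 CPM (wt) and 2.395 and 1.89 CPM (Treml4-/-) at M1-12h. Trim24 changed by -1.67 ± 0.10 and -1.74 ± 0.10. Trim33, which binds SMAD proteins, changed by -0.52 ± 0.13 and -0.52 ± 0.13, which turned to 0.24 and 0.29 with median of ratios scaling and to 0.28 and 0.32 with quantile normalization, none of them called.

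Trim44, which carries a ubiquitin-binding zinc finger in place of a RING finger, was at 58.1 and 43.0 CPM (wt) and 41.4 and 49.0 CPM (Treml4-/-) at M0, at 13.8 and 18.4 CPM (wt) and 21.01 and 20.2 CPM (Treml4-/-) at M1-8h and at 9.61 and 14.0 CPM (wt) and 12.6 and 10.8 CPM (Treml4-/-) at M1-12h. It fell by 1.34 on the log2 scale at 8 h and by 1.94 at 12 h. Trim45, with a filamin domain, was at 4.99 and 4.98 CPM (wt) and 5.50 and 5.76 CPM (Treml4-/-) at M0, at 0.949 and 0.891 CPM (wt) and 1.03 and 0.860 CPM (Treml4-/-) at M1-8h and at 1.36 and 0.992 CPM (wt) and 1.52 and 1.48 CPM (Treml4-/-) at M1-12h. Its log2 fold changes were -1.71 ± 0.08 and -1.44 ± 0.08, and for both genes every LPS library lay below every M0 library. Trim8, a ligase that acts on TAK1 and SOCS1, changed by -1.65 ± 0.06 at 8 h and -1.13 ± 0.06 at 12 h and was called higher at 12 h than at 8 h.

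**Figure D4:**
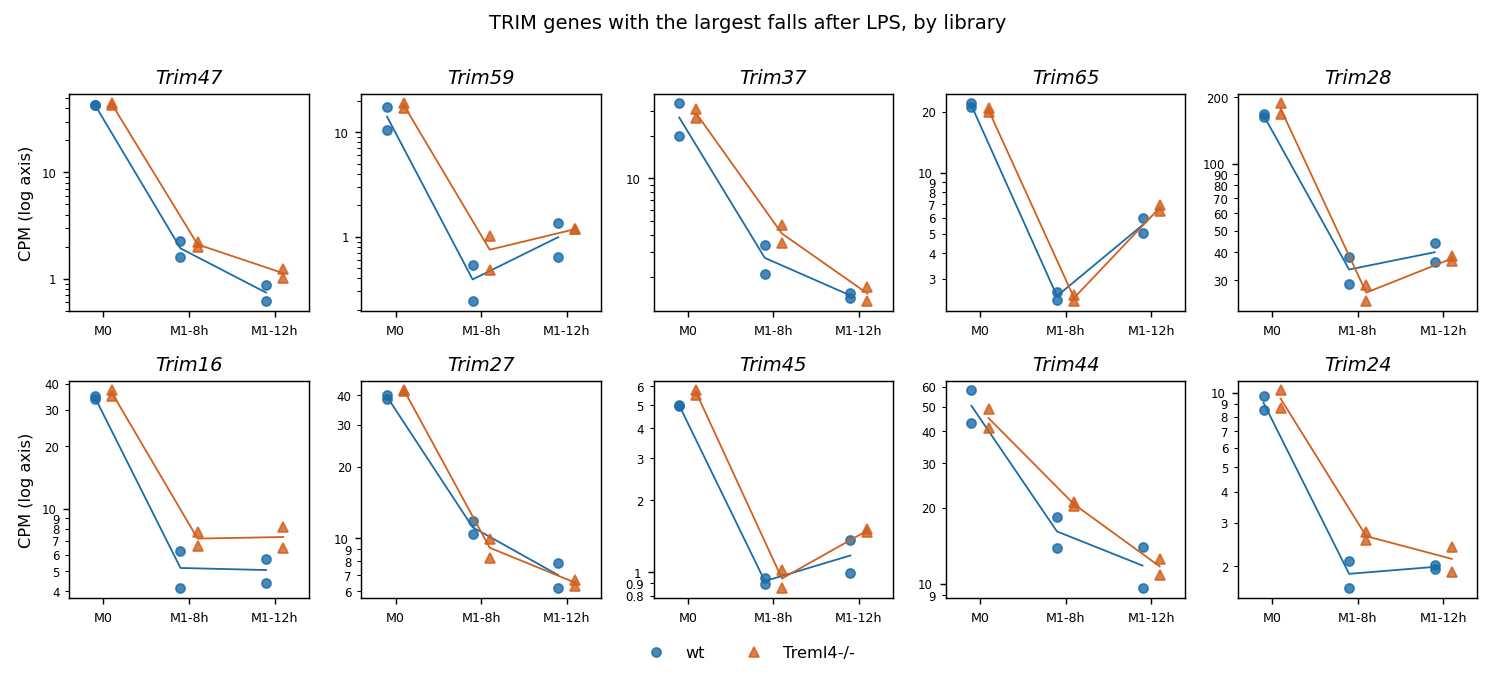
CPM per library (log axis, its range differs by panel) of the 10 TRIM genes with the largest falls at 8 h or 12 h of LPS, with circles for wt, triangles for Treml4-/- and lines through the means of the 2 replicates. In each panel the 4 M0 libraries lie above all 8 LPS libraries, and Trim65 lies at 2.32 to 2.58 CPM at M1-8h and again higher, at 5.04 to 6.96 CPM, at M1-12h.

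The other members called lower are given by their domains. Among those with NHL repeats, Trim2 changed by -1.44 ± 0.09, Trim32, a ligase known from limb-girdle muscular dystrophy, by -1.37 ± 0.09 and Trim3 by -0.81 ± 0.07 at 8 h, and the tested 3 were called lower at both times. Trim2 ranged over 1.16 to 2.54 CPM at M0 and 0.0557 to 0.110 CPM, 3 to 6 reads, at M1-8h, levels at which the added 1 CPM makes the fitted change much smaller than the ratio of the levels. Among other PRY-SPRY members, 8 of 9 tested fell at 8 h (beside 59.8% of all genes) and 6 at 12 h (beside 60.3%), and the group's median on the log2 scale was -1.08 and -0.88. In that group Trim68, Trim62, Trim39, Trim41 and Trim11 changed by -1.20 ± 0.10, -1.08 ± 0.09, -0.75 ± 0.12, -0.54 ± 0.06 and -0.54 ± 0.09 at 8 h. Under median of ratios scaling these 5 values were -0.62, -0.37, -0.03, 0.24 and 0.22, so that the direction of Trim41 and Trim11 turned. Trim46, a microtubule-associated member with a COS box, changed by -0.86 ± 0.07 at 8 h and -0.53 ± 0.07 at 12 h. Trim23, which carries an ARF GTPase domain, was not called in either comparison, with -0.16 ± 0.17 at 8 h and -0.12 ± 0.17 at 12 h, and it was called higher at 12 h with median of ratios scaling (0.56) and at both times with quantile normalization (0.73 and 0.84).

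Between 8 h and 12 h, 11 of the 39 members were called, beside 32.1% of all genes. Trim8, Trim30b, Trim30c and Trim65 were higher at 12 h (10.3%, beside 13.5% of all genes). Trim13, Trim27, Trim35, Trim36, Trim37, Trim44 and Trim47 were lower (17.9%, beside 18.7%). Of these 11 calls, only that of Trim27 was lost under the other scalings, and it was lost under each of them. The 8 h and 12 h comparisons share their M0 libraries, so their values are given side by side and not as independent evidence.

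The 28 members not tested did not reach 1 CPM in 2 libraries. No read was found in any library for 11 of them, at a depth where 3 reads were 0.0513 to 0.0625 CPM, and 7 more had at most 2 reads in every library, among them Trim38 and the erythroid member Trim58. The other 10 had 3 or more reads in at least 1 library, and 3 of these, Trim7, Trim9 and Trim29, in all 12. The highest was Trim29, with 4 to 49 reads, at 0.424 and 0.610 CPM (wt) and 0.998 and 0.748 CPM (Treml4-/-) at M0 and at 0.242 and 0.0743 CPM (wt) and 0.154 and 0.110 CPM (Treml4-/-) at M1-8h, with M0 above the 8 h libraries throughout. Trim17 was at 0.0771 and 0.0590 CPM (wt) and 0.0407 and 0.112 CPM (Treml4-/-) at M0 and at 0.556 and 0.635 CPM (wt) and 0.437 and 0.469 CPM (Treml4-/-) at M1-12h, and 15.6% of its 126-base words were shared with Hist3h2a, so its level is uncertain. Trim34b was at 0.0386 and 0 CPM (wt) and 0.0407 and 0.0935 CPM (Treml4-/-) at M0 and at 0.403 and 0.397 CPM (wt) and 0.396 and 0.382 CPM (Treml4-/-) at M1-12h, with 19.2% of its words shared with Trim34a.

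No member was called between wt and Treml4-/- cells. At M0 0 of 39 members were called, beside 0.0993% of all genes, at M1-8h 0, beside 0.091%, at M1-12h 0, beside 0.132%, and for the mean over the time points 0, beside 0.414%, with limma, and voom on the recovered reads also gave 0 in each. At an unadjusted p under 0.05 there was 1 member at M0 (2.56%, beside 3.35% of all genes), 9 at M1-8h (23.1%, beside 21%), 2 at M1-12h (5.13%, beside 7.55%) and 7 for the mean (17.9%, beside 20.1%). In the interaction test with limma, which compares the LPS response between genotypes, 0 of 39 members were called at each time, beside 0.00827% of all genes, with 1 member at M1-8h at an unadjusted p under 0.05 (beside 6.67% of all genes), 0 at M1-12h (beside 3.82%), and 0 called by voom at either time. Median of ratios scaling moved the median genotype difference of all genes at M1-8h up by 0.121, and 0 members were called under it.

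Intervals of the difference between genotypes are given for 4 of the most strongly expressed members. At M1-12h the difference of wt minus Treml4-/- was -0.03 for Trim25 (95% interval -0.27 to 0.21), -0.02 for Trim30a (-0.32 to 0.28) and 0.00 for Trim21 (-0.17 to 0.18), on the log2 scale. At M1-8h the same genes differed by -0.19 (-0.43 to 0.05), -0.28 (-0.58 to 0.02) and -0.16 (-0.34 to 0.01). Trim30c differed by 0.29 (0.02 to 0.56) at M1-12h, the largest positive difference of the 39 members there (limma, Benjamini-Hochberg adjusted p = 0.623). Both its wt libraries lay above both Treml4-/- libraries there, as in 12.3% of all genes. At M1-8h Trim30c differed by -0.04 (-0.31 to 0.23). Of these 8 intervals, those of Trim30a at M1-8h and Trim30c at M1-12h reached past a 1.4-fold difference, and a call missed is not proof of equal levels.

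The member with the smallest unadjusted p at M0 was Trim2, which binds neurofilament light chain in neurons, at 1.85 and 1.16 CPM (wt) and 2.302 and 2.54 CPM (Treml4-/-). The wt libraries lay below the Treml4-/- libraries, as in 18% of all genes at M0. The log2 difference was -0.46 ± 0.13 (limma, Benjamini-Hochberg adjusted p = 0.724). Without replicate 1 of wt M0, the difference was -0.66 and passed (limma, Benjamini-Hochberg adjusted p = 0.0159), 1 of 39 members beside 1.82% of all genes in that fit, with the remaining wt library assumed to vary like the other groups. At M1-12h it was Trim16, with a difference of -0.45 ± 0.18 (limma, Benjamini-Hochberg adjusted p = 0.576). The genotypes did not overlap in Trim16, as in 43.1% of all genes at M1-12h.

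At M1-8h the smallest p belonged to Trim5, at 3.05 and 3.53 CPM (wt) and 4.51 and 6.29 CPM (Treml4-/-), with a log2 difference of -0.57 ± 0.16 (limma, Benjamini-Hochberg adjusted p = 0.155). Between the 2 replicates of Treml4-/- M1-8h, Trim12c, Trim23, Trim30b and Trim30d were at least 1.4-fold higher in replicate 2, and 6.21% of all genes differed that much in either direction. The wt replicates differed too. Beyond 1.4-fold were 4 members in wt M1-12h (beside 4.82% of all genes), 3 in wt M1-8h (beside 6.26%) and 2 in wt M0 (beside 8.46%). In Treml4-/- M0 and Treml4-/- M1-12h there were 0, beside 0.836% and 0.331%. When replicate 1 of Treml4-/- M1-8h was left out, 5 of 39 members were called (Trim5, Trim12a, Trim12c, Trim23 and Trim30b), all lower in wt, beside 4.95% of all genes in that fit. Without replicate 2 in its place 0 were called, beside 0.0747%. The genes of this paragraph other than Trim5 were chosen after their values were seen. In Trim12c the values were 40.0 and 48.4 CPM (wt) and 50.5 and 84.3 CPM (Treml4-/-).

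**Figure D5:**
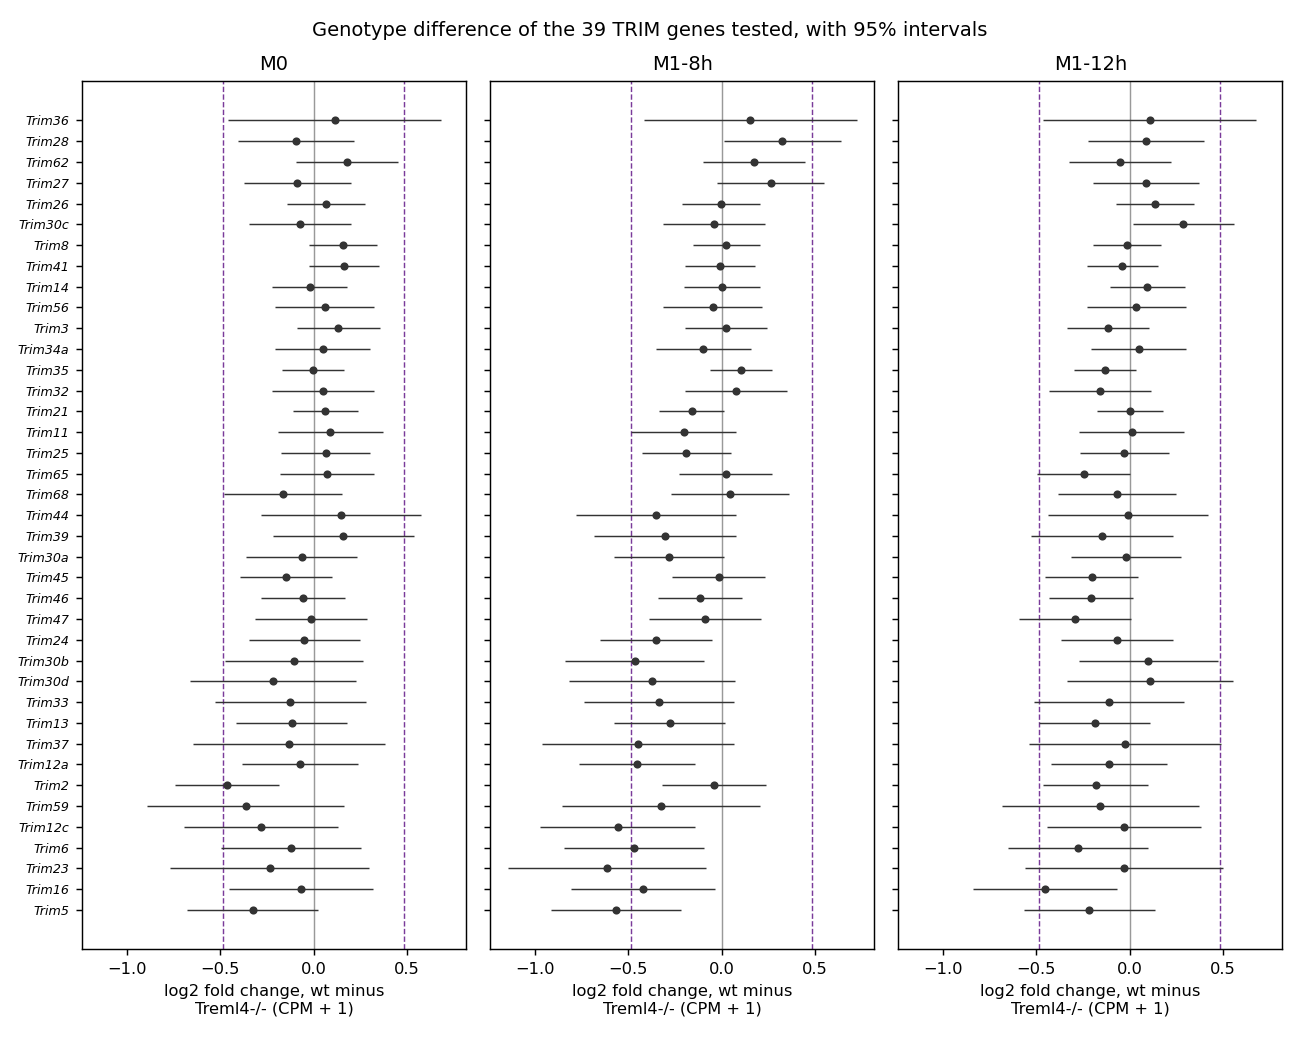
Log2 difference of CPM + 1, wt minus Treml4-/-, with 95% intervals for the 39 tested TRIM genes at M0, M1-8h and M1-12h, ordered by the mean over the time points, with dashed lines at a 1.4-fold difference. Points lie between -0.46 and 0.18 at M0, between -0.62 and 0.33 at M1-8h and between -0.45 and 0.29 at M1-12h, and none was called.

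The 4 TRIM proteins known under other symbols were followed beside the family. Pml, the scaffold of nuclear bodies, rose by 2.75 ± 0.07 on the log2 scale at 8 h and 2.65 ± 0.07 at 12 h, Mefv, which encodes pyrin, by 2.25 ± 0.12 and 1.05 ± 0.12, and Mid1, a microtubule-associated ligase, by 1.61 ± 0.44 and 1.01 ± 0.44. The 3 were called at both times under all 3 scalings, beside 17.1% of all genes called higher at 8 h and 16.3% at 12 h, and Mid2 did not pass the filter. Mid1 was at 1.43 and 0.551 CPM (wt) and 2.404 and 1.80 CPM (Treml4-/-) at M0, at 13.0 and 2.75 CPM (wt) and 7.03 and 6.39 CPM (Treml4-/-) at M1-8h and at 12.3 and 2.32 CPM (wt) and 2.81 and 2.55 CPM (Treml4-/-) at M1-12h. Its replicates thus lay far apart in wt, and at 12 h the libraries other than replicate 1 of wt lay near the highest M0 value. Without wt M1-12h replicate 1 the 12 h difference was 0.52 (limma, Benjamini-Hochberg adjusted p = 0.216), and leaving out 1 library ended the 12 h call in 8 of 12 cases, a setting tried after the data were seen.

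Of 20 known partners and substrates of TRIM proteins, 9 were called higher and 5 lower at 8 h, beside 17.1% and 59.8% of all genes, with a median log2 fold change of 0.17 against -0.72 for all genes. With median of ratios scaling 13 were higher and 2 lower, beside 31.1% and 31.3%. The sensors Ddx58, which encodes RIG-I, and Ifih1, which encodes MDA5, rose by 3.46 ± 0.08 and 5.67 ± 0.13 at 8 h, and the transcription factor Irf7 by 5.31 ± 0.06. Their adaptor Mavs changed by -2.29 ± 0.06, and by -1.51 with median of ratios scaling. The kinase adaptor Tab2 rose by 0.71 ± 0.07, and Tab3 was at 0.25 ± 0.15, not called, though it was called higher with median of ratios scaling (0.93) and quantile normalization (1.19). Irf3 changed by -0.96 ± 0.08, which was not called with median of ratios scaling (-0.19).

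Of 15 tested genes of the ubiquitin and ISG15 systems, 9 were called higher and 1 lower at 8 h, beside 17.1% and 59.8% of all genes, with a median log2 fold change of 0.57. Called higher were the ISG15 genes Uba7, Ube2l6, Isg15, Herc6 and Usp18 and, among ubiquitin enzymes, Uba1, Ube2d3, Ube2e1 and Ube2n. With median of ratios scaling 13 of the 15 were higher and 0 lower, beside 31.1% and 31.3%. The ISG15 system held the largest changes, with the modifier Isg15 at 6.74 ± 0.06, its protease Usp18 at 6.72 ± 0.07 and its ligase Herc6 at 4.41 ± 0.12. The E1 enzyme Uba7 rose by 1.91 ± 0.06 and the E2 enzyme Ube2l6 by 1.25 ± 0.06. Ube2n, which builds the lysine 63 chains used by several TRIM ligases, rose by 0.57 ± 0.07 at 8 h, and Ube2e3 was lower by 0.75, a fall that median of ratios scaling turned to 0.01, not called. Among 20 interferon-stimulated genes used for reference, 19 were called higher at 8 h (beside 17.1% of all genes) and 20 at 12 h (beside 16.3%), with a median log2 fold change of 6.01 and 5.44.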

How the data were processed

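The authors sequenced stranded poly(A) libraries as 126-base paired ends, aligned the reads with STAR, per the labels to mm10, and counted them with Subread in a workflow that also holds DESeq2, edgeR and limma. Strand use in counting is not given in the sources used here. Genes on the opposite strand overlap some members, such as Trim13 (Dleu2), Trim14 (Nans), Trim28 (Zbtb45), Trim32 (Astn2) and Trim41 (Rack1). Their part in the reads of these members was not tested. The deposited values are log2 CPM per gene with a prior of 0.25 reads, for 43280 genes. They were turned back into CPM, and whole reads, within 0.01 reads, were recovered for 100% of the values. The plan had assumed CPM. A linear model with limma 3.58.1 (R 4.3.3) was fitted to log2(CPM + 1) of all 12 libraries, giving each condition its own mean and the prior variance a trend, on 12086 genes that reached 1 CPM in 2 or more libraries, and p-values were adjusted by Benjamini-Hochberg over these genes. The fit was tested on simulated data. Depth was 48008751 to 58500792 reads on genes per library. The floor of 3 reads covers counting error only. One further marker list is not reported here.

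Members, gene lists and motifs were chosen with earlier results of these data known. Values in every library are given for the 8 largest called changes in each direction at 8 h or 12 h, the smallest p between genotypes at each time, Trim21, Trim25 and Trim30a, and the 3 highest members per kb. Positions and exon lengths came from GENCODE M21 on GRCm38, and promoters from RefSeq GRCm38.p6. Alternatives were a pseudocount of 0.1, the deposited log2 values used directly, no filter, a filter at 5 CPM, 2 other scalings, no trend, only the libraries compared, no minimum fold, voom on recovered reads, replicate blocks and leaving out each library. Other steps used Python 3.11.15 with pandas 2.3.3, numpy 2.4.6 and Biopython 1.88.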

Additional observations from a re-analysis of the deposited data

How the results depend on the processing

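The number of members called lower at 8 h, 21, became 12 under quantile normalization, and that at 12 h, 20, became 13 under median of ratios scaling and 13 under quantile normalization, beside the shift of all genes given in the report. The number called higher at 12 h than at 8 h, 4, became 7 with a pseudocount of 0.1, 8 with the deposited log2 values, 9 with no minimum fold change and 7 with voom, the additions being members of low level or below 1.4-fold. Leaving out each library in turn gave 0 to 1 members called between genotypes at M0 (Trim2, without replicate 1 of wt) and 0 to 5 at M1-8h (without replicate 1 of Treml4-/-). Leaving out 1 library also ended the call of Trim33 or Trim11 against M0 (for Trim33 at 8 h, replicate 1 of wt M0, wt M1-8h or Treml4-/- M1-8h) and that of Trim27 or Trim44 between 12 h and 8 h (both without replicate 1 of wt M1-12h). The lone library of a condition was there assumed to vary like the other groups. Among the members named by rule, 836 recomputed values kept direction and side of the threshold, 2 gained a call and 0 reversed. The correlation of deviations of same-numbered samples was -0.264 to 0.297 between genotypes of the same time point, 0.0625 to 0.406 between time points of wt and -0.272 to 0.462 between those of Treml4-/-, and was over 0.1 in 6 of the 15 pairs of conditions, so the samples were treated as sharing only a number. With the replicate block by number, 16 members were higher and 21 lower at 8 h and 14 and 20 at 12 h, and no count of members changed with it or with a replicate block by genotype and number. With 2 libraries per condition, changes near 1.4-fold were at the limit of what these data can call. Between genotypes at a single time point the limit lay higher, since a member difference of -0.62 on the log2 scale at M1-8h was not called.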
